A study of Mus musculus with 2 samples.

Results

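Endothelial cells line every blood vessel of skeletal muscle, and 555 barcodes of that kind were found among 48143 kept barcodes in injured mouse hind limb muscle. A barcode was counted as endothelial when it had more than 200 genes, under 10% mitochondrial transcripts, a transcript of at least 3 of the 6 genes Pecam1, Cdh5, Flt1, Kdr, Cldn5 and Egfl7, and no transcript of Csf1r, C1qa, Pdgfra or Rgs5. Of these barcodes, 299 of 23385 came from the IgG library and 256 of 24758 from the SPP1-nAb library. Transcripts were counted as unique molecular identifiers (UMIs), so that copies of 1 captured RNA molecule count once. Levels are given as counts per 1000000 UMIs (CPM) summed over the endothelial barcodes of a library.

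Both libraries came from hind limb muscle (TA, the tibialis anterior, and GTN in the protocol) of male mice labeled C57BL/6J, 10 to 16 weeks old. Muscle was taken 7 days after bilateral peroneal nerve injury. The control mice received goat anti-mouse IgG and the other mice an SPP1 neutralizing antibody (SPP1-nAb), each at 2 µg in 10 µL into the TA muscle at injury and every 2 days. SPP1, or osteopontin, is a secreted protein that binds integrins and Cd44. There was 1 library per group, the number of animals behind each is not given in the sources used here, and no test between groups was possible. The study describes TA muscle alone for these libraries, so which muscles were sampled is not settled. The sample titles call both libraries S100GFP-positive, and the protocol lists GFP-positive and GFP-negative live cells. For the antibody experiments the study's methods name S100GFP transgenic mice, which carry GFP under the S100B promoter. They name C57BL/6J mice for sciatic nerve crush, so the strain label and the methods differ. Every interval below is a 95% interval for counting error alone, and animal-to-animal spread is unknown. Where a pair of values is given, IgG comes first, and ratios are SPP1-nAb over IgG.

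Capillaries make up most of the muscle vascular bed and take up fatty acids through Cd36, Fabp4 and Gpihbp1, the protein that holds lipoprotein lipase at the vessel wall. Arterial endothelium is marked by the connexin Gja5 and by Notch signaling. Venous and postcapillary endothelium carries the selectins Sele and Selp, the atypical chemokine receptor Ackr1 and von Willebrand factor (Vwf), and is where leukocytes leave the blood. Endothelial promoters are known for sites of ETS transcription factors, whose core motif is GGAA.

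Promoters of 1 gene for each kind of vessel identity described below are shown here, from RefSeq on build GRCm38.p6, covering 250 bases before and 50 bases after the gene start and written along the strand of the gene. They were chosen after values were seen. Flt1, a selection marker, encodes VEGF receptor 1 (chr5:147725962-147726261, minus strand). Timp4, a metalloprotease inhibitor, was a leading gene of capillary-like clusters 0 and 2 (chr6:115252156-115252455, minus strand). Gja5 marked arterial-like cells (chr3:97032152-97032451, plus strand) and Ackr1 marked venous-like cells (chr1:173333454-173333753, minus strand). Capitals mark AGGAAG or its reverse complement CTTCCT.
Flt1: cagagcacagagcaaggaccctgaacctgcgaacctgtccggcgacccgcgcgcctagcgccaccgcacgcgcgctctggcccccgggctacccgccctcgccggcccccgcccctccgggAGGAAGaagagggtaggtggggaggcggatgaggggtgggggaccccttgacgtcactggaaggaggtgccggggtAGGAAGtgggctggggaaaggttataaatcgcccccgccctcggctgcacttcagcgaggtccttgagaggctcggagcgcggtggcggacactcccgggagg
Timp4: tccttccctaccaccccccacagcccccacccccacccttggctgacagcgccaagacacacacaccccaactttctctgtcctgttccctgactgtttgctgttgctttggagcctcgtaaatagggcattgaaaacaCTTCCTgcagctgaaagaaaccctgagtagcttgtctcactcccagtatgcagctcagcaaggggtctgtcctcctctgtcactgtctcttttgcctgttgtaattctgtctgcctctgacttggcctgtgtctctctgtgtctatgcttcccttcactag
Gja5: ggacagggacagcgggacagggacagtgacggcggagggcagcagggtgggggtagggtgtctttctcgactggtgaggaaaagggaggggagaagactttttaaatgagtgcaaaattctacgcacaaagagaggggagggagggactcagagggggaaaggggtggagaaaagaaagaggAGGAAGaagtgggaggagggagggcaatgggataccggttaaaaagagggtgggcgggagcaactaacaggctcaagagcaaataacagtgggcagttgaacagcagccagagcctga
Ackr1: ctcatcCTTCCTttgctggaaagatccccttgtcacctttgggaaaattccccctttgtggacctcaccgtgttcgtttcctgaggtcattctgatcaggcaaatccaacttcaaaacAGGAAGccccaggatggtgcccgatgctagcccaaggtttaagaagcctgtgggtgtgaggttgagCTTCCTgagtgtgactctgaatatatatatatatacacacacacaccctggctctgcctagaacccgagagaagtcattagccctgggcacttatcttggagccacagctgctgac
The motif was found at 2 places in the Flt1 window, 1 in Timp4, 1 in Gja5 and 3 in Ackr1. It was in 35.4% of all 32851 promoter windows. Of 20 pan-endothelial genes that the selection did not use, 8 had a promoter in the table, and 5 of their 11 windows held the motif. It was in 3 of 9 windows of capillary genes, 5 of 11 of arterial genes and 5 of 8 of venous genes. A match of letters is a description and not a binding site.

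The endothelial barcodes were shallow. Their median was 1194 UMIs and 781 genes in the IgG library and 1432 UMIs and 908 genes in the SPP1-nAb library, against medians of 3822 and 4756 UMIs over all kept barcodes. The libraries held 97607674 and 127719916 UMIs, of which 509150 and 577012 lay in endothelial barcodes. At these totals, 3 UMIs correspond to 5.89 and 5.2 CPM. The libraries shared 163 barcode sequences, and none of them was a member in both.

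Members just inside the marker threshold had exactly 3 markers, in 69 IgG and 60 SPP1-nAb barcodes, with medians of 905 and 1024 UMIs. Barcodes just outside it had exactly 2 markers, in 71 and 73 barcodes, with medians of 1371 and 3395 UMIs. All 6 markers were found in 35 and 23 members. The excluded genes removed 171 of 470 and 141 of 397 barcodes with 3 or more markers, and the removed barcodes were deeper, at medians of 2389 and 3061 UMIs. Rgs5, a pericyte gene, was present in 102 and 74 of these candidates, the complement gene C1qa in 65 and 65, the macrophage receptor Csf1r in 40 and 53 and the fibroblast receptor Pdgfra in 11 and 5. Of the removed barcodes, 53 in each library had a single UMI of the excluded genes.

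The label held against endothelial genes that the selection did not use. The 20 pan-endothelial genes, such as the phosphatase Ptprb, the sialomucin Emcn and the receptor component Ramp2, summed to 6116 CPM in the IgG library and 5917 CPM in the SPP1-nAb library (log2 ratio -0.05, -0.12 to 0.02) in the endothelial barcodes. In mural barcodes (pericytes and smooth muscle, selected by their own markers) they summed to 159.8 and 155 CPM, in mesenchymal barcodes to 281 and 181 CPM and in phagocyte barcodes to 306 and 287 CPM. The arterial list summed to 874 and 794 CPM in endothelial, 155 and 125 CPM in mural, 192 and 148 CPM in mesenchymal and 5.92 and 5.13 CPM in phagocyte barcodes. Capillary genes summed to 26464 and 19760.4 CPM in endothelial and 5252 and 3996 CPM in mural barcodes. The plot of lists across the 4 populations shows the endothelial barcodes above the others for the pan-endothelial, capillary, venous and arterial lists, in both libraries.

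**Figure D1:**
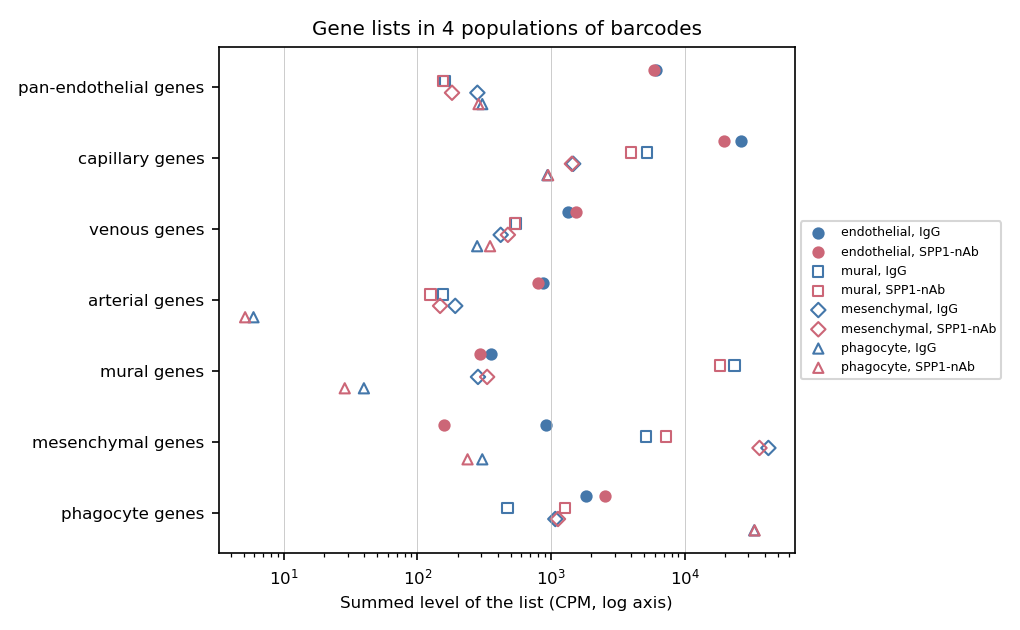
Summed level of each gene list (CPM, log axis) in endothelial, mural, mesenchymal and phagocyte barcodes, with 1 point per population and library. The pan-endothelial, capillary, venous and arterial lists are highest in the endothelial barcodes, where mural, mesenchymal and phagocyte lists lie below those of the population they mark.

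Markers of other cell types were checked before the libraries were compared. Lymphocyte genes were at 0 for 9 of 9 genes, and mural genes summed to 357 and 295 CPM, with Tagln holding 58.2% of the UMIs, Pdgfrb, Kcnj8 and Higd1b at 0 and Rgs5 at 0 by the rule. Schwann cell genes summed to 58.9 and 58.9 CPM, with Sox10 and Ngfr at 0, and the Gfp reporter itself was at 21.6 and 31.2 CPM. Muscle genes summed to 3033 and 83.2 CPM and red cell and platelet genes to 5146 and 83.2 CPM. Those IgG sums came mostly from 2 barcodes: 1 of 11324 UMIs held 385 of 443 Tnnt3 UMIs and 188 of 282 Mylpf UMIs, and 1 of 3989 UMIs held 1310 of 1396 Hbb-bs UMIs. The first also held 473 of 620 UMIs of Tpm1, which is not in the muscle list. Both had at least 5% of their UMIs in muscle, red cell and mesenchymal genes, as no other member did, and they are called mixed cells below. Mesenchymal genes summed to 909 and 158 CPM, and a single IgG barcode held 83 of 214 Dcn UMIs. Phagocyte genes summed to 1823 and 2523 CPM, with Apoe as the most abundant, and neutrophil genes to 11.8 and 269 CPM, with S100a9 as the most abundant. The part of these transcripts in the differences below was not tested, except where values without the barcodes are given.

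Clustering the 555 barcodes gave 9 sub-clusters. Clusters 0, 2 and 3, with 105, 78 and 76 cells, had 10 of 12 capillary markers raised over the other endothelial barcodes and are called capillary-like. Cluster 0 was led by Adh1, Tspan6, Timp4, the immune-response transcript AW112010, Abcb1b and Car8. Cluster 2 was led by Timp4 (828 CPM against 201 in the other endothelial barcodes), Ecm2 and the immediate early and stress genes Btg2, Ier5l, Pim3 and Zfp36. Cluster 3 was led by Tpm1, most of it in 1 mixed cell, then by Ybx3, Gm12002, Car4, Ubxn2a and Psmd4. The same mixed cell held 73 of the 92 Ybx3 UMIs of the cluster. Cluster 6, with 42 cells, had 11 of 12 venous markers raised and is called venous-like, with Ackr1 at 765 CPM against 7.43 elsewhere, Selp at 1231 against 17 and Sele at 501 against 7.43. Its other leading genes were Cadm3, Adgrg6 and Ret. Cluster 7, with 23 cells, had 12 of 12 arterial markers raised and is called arterial-like, led by Gkn3, Tmem100, Mannr, Gja5 (308 against 1.94 CPM), Efna5 and Cytl1.

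The other 4 sub-clusters stay unnamed. Cluster 1, with 98 cells, was led by Stxbp6, Rnf220, Lnx1, Dlg2, Bmp6 and Mcf2l and had a median of 1132 UMIs. Cluster 5, with 56 cells and a median of 706 UMIs, was led by AY036118, Rflnb, Nes, Gm42418, Jcad and Dab2ip, and AY036118 and Gm42418 are sequences linked to ribosomal RNA. It had 6 of 12 capillary markers raised, among them Cxcl12 and Fabp4 (27109 and 23763 CPM), but none among its top 10 genes. Cluster 4, with 56 cells, was deep, at a median of 4478 UMIs, and was led by Lama2, Itm2a, Prnd, Mir99ahg, AA467197 and the imprinted gene Mest (329 against 42.6 CPM). It had 6 of 14 tip and angiogenic markers raised, among them Apln, Angpt2 and Plvap, and also held barcodes with lymphatic, mesenchymal and myogenic transcripts. Cluster 8, with 21 cells, was led by Napsa, Itgal, Rnase6, Alcam, Apoc2 and Glipr1, most of them leukocyte genes, with Napsa, Rnase6 and Apoc2 at 0 in its 6 IgG cells. In it the leukocyte gene Ptprc was found in 81% of cells and Cd74 in 76.2%, beside Flt1 in 95.2% and Cdh5 in 85.7%, which the selection favored. Of endothelial genes that it did not use, Ptprb was in 71.4% of its cells, Emcn in 38.1% and Vwf in none. Its pan-endothelial genes summed to 3246 and 1278 CPM (log2 ratio -1.35, -1.81 to -0.88), below 6249 and 6537 CPM (log2 ratio 0.07, -0.01 to 0.14) in the other endothelial barcodes. It goes against the endothelial label, held 6 IgG and 15 SPP1-nAb cells, and is called the leukocyte-gene cluster below. A cell carrying both sets of genes and a droplet that held 2 cells cannot be told apart here.

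**Figure D2:**
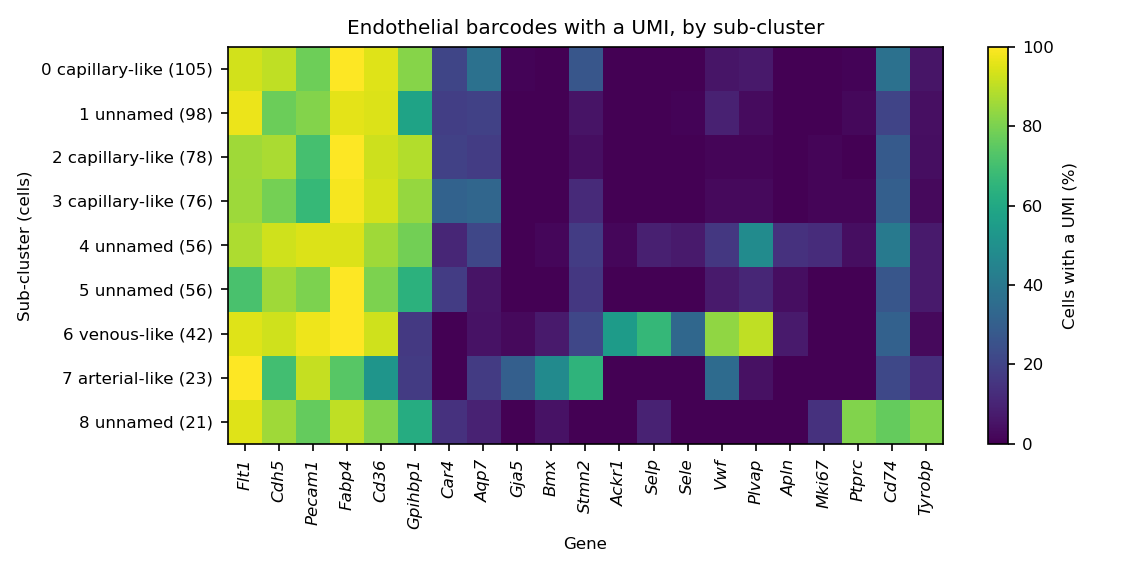
Share of cells with a UMI (color, %) for each gene (columns) in each of the 9 sub-clusters (rows, with the number of cells). Flt1 and Fabp4 run across all rows, Gja5 and Bmx stand out in arterial-like cluster 7, Ackr1, Selp and Sele in venous-like cluster 6, and Ptprc and Tyrobp in cluster 8.

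Cells per library were 154 and 105 in the capillary-like clusters, 20 and 22 in the venous-like cluster, 14 and 9 in the arterial-like cluster, 50 and 48 in cluster 1, 25 and 31 in cluster 4 and 30 and 26 in cluster 5 (IgG, then SPP1-nAb). The genes that define these clusters differ in level between the libraries, so cluster sizes were not compared.

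Endothelial barcodes were 1.28% of the kept IgG barcodes (Clopper-Pearson 95% interval 1.14 to 1.43%) and 1.03% of the kept SPP1-nAb barcodes (0.912 to 1.17%). The difference was -0.245 percentage points, and it had the opposite sign with another denominator and at reduced depth. Among kept barcodes with no Ptprc transcript, which leaves out most leukocytes, the shares were 3.11% and 3.32%. With every barcode reduced at random to 2000 UMIs before selection, they were 0.345% and 0.39%. The intervals of both of these differences include 0, at -0.337 to 0.767 points and -0.0788 to 0.166 points. Mural barcodes were 0.825% and 0.59% of kept barcodes, and phagocyte barcodes 49.5% and 60.2%. The titles and the protocol differ on which sorted fractions entered each library, and a sort can set these shares.

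Most genes had close levels in the endothelial barcodes of both libraries. Of 2107 genes with at least 100 UMIs and 20 cells over both, 34 (1.61%) differed by 2-fold or more, 21 higher in SPP1-nAb (0.997%) and 13 lower (0.617%). The median log2 ratio of SPP1-nAb over IgG was 0.02, with quartiles at -0.18 and 0.21. At that share, a count of 0 in a list of few measured genes is near the background and is no result about the list. Without the leukocyte-gene cluster the balance turned to 12 higher and 15 lower, and without cells holding Ptprc, or at an equal mix of sub-clusters, to 11 higher and 17 lower. None of the 17 pan-endothelial genes measured at that depth differed by 2-fold, and their median log2 ratio was -0.02. Of the 34 genes, 22 remained 2-fold apart in the same direction without the leukocyte-gene cluster, and 10 remained so in each of 4 recalculations (without that cluster, without the highest cell of each gene, as a mean over cells, and at an equal mix of sub-clusters). Those 10 were Timp4, Nmt1, Dcn, Col1a2, Apod, Mylpf and Hbb-bs, lower in SPP1-nAb, and Col18a1, Mest and Bgn, higher. Of the lower ones, Dcn, Col1a2, Mylpf and Hbb-bs belong to the lists of other cell types. Apod and Bgn had lower levels here than in the other kept barcodes. Apod was at 442 and 48.5 CPM against 1887 and 818 CPM there, and 112 of its 225 IgG UMIs lay in 1 cell. Bgn was at 58.9 and 140 CPM against 269 and 248 CPM.

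Capillary genes were lower in the SPP1-nAb library when all endothelial barcodes were summed. The 12 genes summed to 26464 CPM in the IgG library and 19760.4 CPM in the SPP1-nAb library (log2 ratio -0.42, -0.46 to -0.39), and 11 of 11 measured members had a ratio below 0, with a median of -0.45. Fabp4, the fatty acid binding protein that held 59.1% of the list's UMIs, was at 15300 CPM in the IgG library and 11979 CPM in the SPP1-nAb library (log2 ratio -0.35, -0.40 to -0.31). The fatty acid receptor Cd36 was at 2979 and 1991 CPM (log2 ratio -0.58, -0.69 to -0.47) and the matrix protein Sparcl1 at 1823 and 1555 CPM (log2 ratio -0.23, -0.36 to -0.10). The chemokine Cxcl12 was at 2147 and 1177 CPM (log2 ratio -0.87, -1.01 to -0.73), and the lipase anchor Gpihbp1 at 1159 and 849 CPM (log2 ratio -0.45, -0.62 to -0.27). Aqp7, a glycerol channel, was the capillary gene past 2-fold, at 179 and 83.2 CPM (log2 ratio -1.10, -1.64 to -0.58). At an equal mix of sub-clusters the log2 ratio was above 0 for Aqp1 (0.11), Sparcl1 (0.08), Meox2 (0.07) and Gpihbp1 (0.03). The other measured capillary genes stayed below 0.

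Values within the capillary-like cells are given as a description. These clusters were named for raised capillary genes, so the choice of cells itself bears on how far those genes can differ within them. Without the 2 mixed cells, 152 IgG and 105 SPP1-nAb capillary-like cells had the capillary list at 41505 and 37509.6 CPM (log2 ratio -0.15, -0.20 to -0.10). Fabp4 was at 24089 and 23018 CPM (log2 ratio -0.07, -0.13 to 0.00) and Gpihbp1 at 2167 and 1934 CPM (log2 ratio -0.16, -0.39 to 0.06). Cxcl12 remained lower in SPP1-nAb, at 3237 and 2221 CPM (log2 ratio -0.54, -0.75 to -0.34), as did Cd36, at 4452 and 3371 CPM (log2 ratio -0.40, -0.57 to -0.24). In the unnamed clusters, Cxcl12 had a log2 ratio of -0.60 in cluster 1, -1.04 in cluster 4 and -0.03 (-0.44 to 0.38) in cluster 5, where it was at 4554 and 4449.8 CPM. With the 2 mixed cells kept, the capillary list's ratio in capillary-like cells was -0.05. Averaging the libraries over an equal mix of sub-clusters gave a ratio of -0.13 for that list over all endothelial barcodes.

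Cxcl12 was also found in a lower share of SPP1-nAb cells at 2000 UMIs, while the intervals at 1000 UMIs and without reduction reached 0. Reduced to 2000 UMIs each, 72.9% of 59 IgG cells (59.7 to 83.6%) and 49.4% of 89 SPP1-nAb cells (38.7 to 60.2%) had a Cxcl12 transcript. The 240 and 167 shallower cells were left out, and without the reduction the shares were 77.9% and 70.7%. Median depth was 1104.5 and 1160 UMIs in capillary-like cells and 3880 and 4703 UMIs in cluster 4. The cells used therefore lean toward deep sub-clusters, and their sub-cluster mix was not matched between the libraries. The difference was -23.4 points (-38.7 to -6.42) at 2000 UMIs and -9.76 points (-19.6 to 0.297) at 1000 UMIs. In phagocytes at 2000 UMIs the shares were 1.43% and 0.756%, with unreduced median depths of 4228 and 5374 UMIs.

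The fatty acid transport list, which shares Fabp4, Cd36 and Gpihbp1 with the capillary list, summed to 21554 and 16736 CPM (log2 ratio -0.36, -0.40 to -0.33) in all endothelial barcodes and 33730 and 31565 CPM (log2 ratio -0.10, -0.15 to -0.04) in capillary-like cells without the mixed ones. Fabp5 was at 933 and 986 CPM (log2 ratio 0.08, -0.10 to 0.26), lipoprotein lipase (Lpl) at 346 and 303 CPM (log2 ratio -0.19, -0.50 to 0.12), and the transcription factor Tcf15 at 407 and 227 CPM (log2 ratio -0.84, -1.17 to -0.52). None of the 8 measured members differed by 2-fold.

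**Figure D3:**
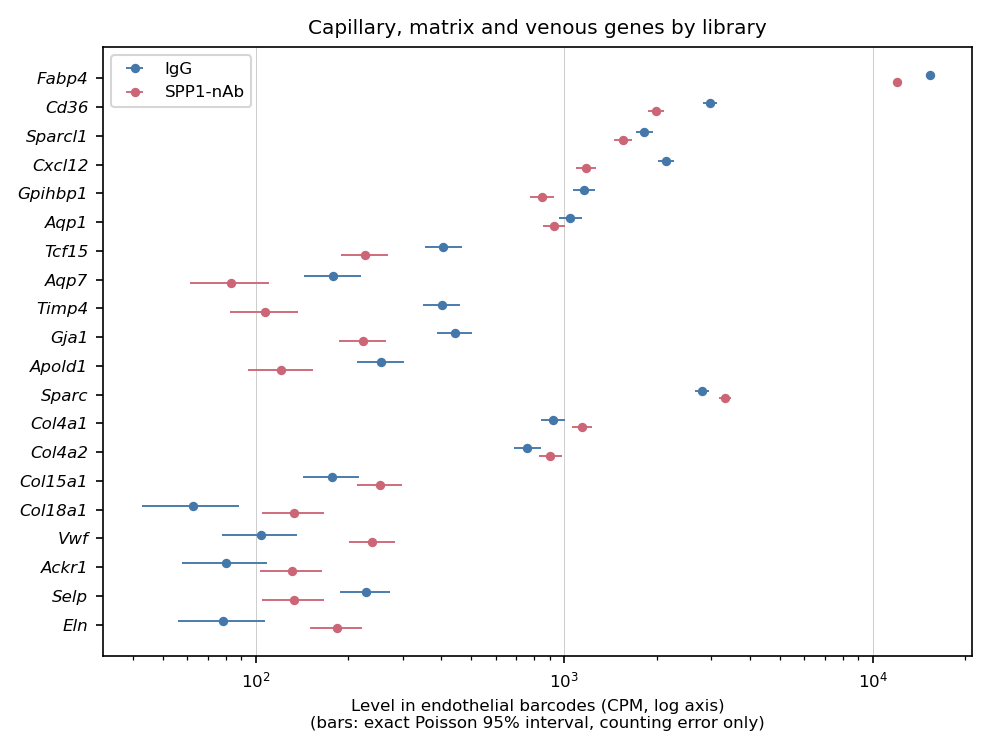
Level of 20 capillary, matrix and venous genes (CPM, log axis) in the endothelial barcodes of each library, with exact Poisson 95% intervals for counting error. Capillary genes such as Fabp4, Cd36 and Cxcl12 lie lower in SPP1-nAb, and the matrix genes Sparc, Col4a1 and Col18a1 and the venous gene Vwf lie higher.

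Basement membrane genes were higher in the SPP1-nAb library. The 13 genes summed to 5656 CPM in the IgG library and 6889 CPM in the SPP1-nAb library (log2 ratio 0.28, 0.21 to 0.35), and 10 of 10 measured members had a ratio above 0, with a median of 0.33 against 0.02 over all 2107 genes. The collagen-binding protein Sparc was at 2801 and 3329 CPM (log2 ratio 0.25, 0.15 to 0.35). The chains of type IV collagen, the main network of the basement membrane, were at 921 and 1144 CPM (log2 ratio 0.31, 0.14 to 0.49) for Col4a1 and 760.1 and 903 CPM (log2 ratio 0.25, 0.06 to 0.44) for Col4a2. The laminin chain Lama4 was at 261 and 331 CPM (log2 ratio 0.34, 0.01 to 0.67) and the perlecan gene Hspg2 at 222 and 256 CPM (log2 ratio 0.21, -0.15 to 0.58). Col15a1 was at 177 and 253 CPM (log2 ratio 0.52, 0.13 to 0.91). Col18a1, the collagen from which endostatin is cut, passed 2-fold at 62.8 and 133 CPM (log2 ratio 1.09, 0.47 to 1.73), in 11 and 25 cells.

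With members reduced to 2000 UMIs the list's ratio was 0.12. The list was also higher in SPP1-nAb within capillary-like cells. Without the mixed cells, the list was at 5640.5 and 7016 CPM (log2 ratio 0.31, 0.19 to 0.44), Sparc at 2839 and 3637 CPM (log2 ratio 0.36, 0.18 to 0.54), Col4a1 at 801 and 1165 CPM (log2 ratio 0.54, 0.21 to 0.87) and Col15a1 at 75.3 and 201 CPM (log2 ratio 1.42, 0.44 to 2.46), while Col4a2 was at 882 and 992 CPM (log2 ratio 0.17, -0.17 to 0.51). The list was at 5428 and 6908 CPM (log2 ratio 0.35, 0.14 to 0.56) in cluster 1. It was at 10894 and 11285 CPM (log2 ratio 0.05, -0.21 to 0.31) in cluster 5, with an interval that includes 0, and lower in SPP1-nAb in the leukocyte-gene cluster, at 3024 and 1483 CPM (log2 ratio -1.03, -1.49 to -0.56) from 68 and 101 UMIs. In cluster 4 the list was at 7915 and 10187 CPM (log2 ratio 0.36, 0.25 to 0.48), in arterial-like cells at 2043 and 6013 CPM (log2 ratio 1.56, 1.10 to 2.04) from 50 and 185 UMIs, and in venous-like cells at 3261 and 3374 CPM (log2 ratio 0.05, -0.22 to 0.32). Mesenchymal barcodes, which make much of this matrix, had 9229.8 and 9978 CPM. Mesenchymal markers inside the endothelial barcodes were at 909 and 158 CPM, partly in few cells, and their part in these values was not tested.

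Venous genes were slightly higher in SPP1-nAb, at 1338 and 1537 CPM (log2 ratio 0.20, 0.06 to 0.35) for the 12 genes, with 5 of 7 measured members above 0. Vwf, the platelet-binding glycoprotein, passed 2-fold at 104 and 239 CPM (log2 ratio 1.20, 0.73 to 1.69), in 31 and 43 cells. Ackr1 was at 80.5 and 132 CPM (log2 ratio 0.71, 0.14 to 1.29). P-selectin (Selp), which captures rolling leukocytes, was at 228 and 133 CPM (log2 ratio -0.77, -1.21 to -0.34), and 51 of its 116 IgG UMIs lay in 1 cell, without which, and without the highest SPP1-nAb cell, its log2 ratio was -0.23. The acute-phase gene Lrg1 was at 179 and 227 CPM (log2 ratio 0.35, -0.05 to 0.75) and the cytokine receptor chain Il6st at 185 and 206 CPM (log2 ratio 0.16, -0.24 to 0.57). Within the 20 and 22 venous-like cells, which were named for this list, its genes ran in both directions. There Selp was at 1831 and 773 CPM (log2 ratio -1.24, -1.71 to -0.79) and Vwf at 482 and 1227 CPM (log2 ratio 1.35, 0.75 to 1.99). These cells held 114 of the 116 IgG UMIs of Selp, so the cell with 51 of them lay among these cells. Sele had 55 and 17 UMIs there and 56 and 23 UMIs over all endothelial barcodes, too few for a ratio to be read. In the venous-like cells the venous list summed to 7181 and 6379 CPM (log2 ratio -0.17, -0.36 to 0.01) and the interferon list to 7582 and 5005 CPM (log2 ratio -0.60, -0.79 to -0.40).

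Arterial genes had few transcripts and close levels, at 874 and 794 CPM (log2 ratio -0.14, -0.33 to 0.05) for the 12 genes, of which 3 were measured at the depth set above. Stmn2 was at 189 and 189 CPM (log2 ratio 0.00, -0.41 to 0.41), the ephrin Efnb2 at 175 and 140.4 CPM (log2 ratio -0.32, -0.77 to 0.13) and the transcription factor Sox17 at 177 and 132 CPM (log2 ratio -0.42, -0.88 to 0.03). None of the 3 differed by 2-fold. In the 14 and 9 arterial-like cells, which were named for it, the arterial list was at 4290.4 and 5135 CPM (log2 ratio 0.26, -0.11 to 0.63). Mural genes had 1 UMI in the IgG cells of that cluster and 68 in its SPP1-nAb cells, and their part in its other differences was not tested.

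Genes of leukocyte adhesion were at 1559 and 1379.5 CPM (log2 ratio -0.18, -0.32 to -0.03), with 5 members measured and 0 past 2-fold. The junction molecule Jam2 was at 458 and 373 CPM, the sialomucin Cd34 at 242 and 262 CPM and Icam2 at 208 and 217 CPM. Madcam1 and Glycam1, addressins of mucosal and lymph node vessels, had no transcript. Junction genes were at 5857 and 5360.4 CPM (log2 ratio -0.13, -0.20 to -0.05), a sum that includes the selection markers Cdh5, Pecam1 and Cldn5. Of members that the selection did not use, the tight junction scaffold Tjp1 was at 556 and 452 CPM (log2 ratio -0.30, -0.55 to -0.05) and the adhesion molecule Esam at 283 and 376 CPM (log2 ratio 0.41, 0.10 to 0.73). The gap junction gene Gja1 was at 442 and 224 CPM (log2 ratio -0.98, -1.31 to -0.66), just short of 2-fold.

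Among VEGF genes, the coreceptors Nrp1 and Nrp2 were at 843 and 752 CPM (log2 ratio -0.16, -0.36 to 0.03) and 275 and 255 CPM (log2 ratio -0.11, -0.45 to 0.23), with intervals that include 0. Flt1 was at 2151 and 1639 CPM (log2 ratio -0.39, -0.52 to -0.26) and Kdr, the main signaling receptor of VEGF-A, at 701 and 532 CPM (log2 ratio -0.40, -0.62 to -0.17), and both are given as a description because they were used in selection. The list, of which Flt1 holds 51.2% of the UMIs, was at 4103 and 3289 CPM (log2 ratio -0.32, -0.41 to -0.23). Within capillary-like cells without the mixed ones, Kdr was at 1129 and 1193 CPM (log2 ratio 0.08, -0.22 to 0.38) and Flt1 at 2877 and 2257 CPM (log2 ratio -0.35, -0.56 to -0.15). Of the angiopoietin and Tie genes, Ptprb was at 1277 and 1104 CPM (log2 ratio -0.21, -0.37 to -0.05), the receptor Tek at 314 and 314 CPM (log2 ratio -0.00, -0.32 to 0.31) and its partner Tie1 at 134 and 125 CPM (log2 ratio -0.10, -0.60 to 0.40).

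Of 14 Notch genes, 2 were measured and neither passed 2-fold. The target Hes1 was at 568 and 334 CPM (log2 ratio -0.76, -1.03 to -0.50) and the receptor Notch1 at 163 and 156 CPM (log2 ratio -0.06, -0.51 to 0.38), with an interval that includes 0. The list summed to 1153 and 818 CPM (log2 ratio -0.50, -0.67 to -0.32), and Hes1 held 45.5% of its UMIs. The ligands Jag1 and Dll4 had only 42 and 25 UMIs and 37 and 28 UMIs. In capillary-like cells without the mixed ones, the Notch list was at 1409 and 1279.5 CPM (log2 ratio -0.14, -0.42 to 0.14). TGF-beta and BMP genes were at 2628 and 2530.3 CPM (log2 ratio -0.05, -0.16 to 0.05), with 3 of 8 measured members above 0. The inhibitors of differentiation Id3 and Id1, known BMP targets, were at 656 and 591 CPM (log2 ratio -0.15, -0.37 to 0.07) and 391 and 274 CPM (log2 ratio -0.51, -0.82 to -0.20). The BMP receptor Bmpr2 was at 310.3 and 354 CPM (log2 ratio 0.19, -0.12 to 0.50) and the coreceptor Eng at 344 and 321 CPM (log2 ratio -0.10, -0.41 to 0.21).

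Among secreted factors, the list was at 8718 and 7085 CPM (log2 ratio -0.30, -0.36 to -0.24), with 7 of 9 measured members below 0 and none past 2-fold. Igfbp7 was at 3488 and 3121 CPM (log2 ratio -0.16, -0.26 to -0.06), and the ligand of the receptor Kit, Kitl, at 1145 and 972 CPM (log2 ratio -0.24, -0.41 to -0.07). The pericyte growth factor Pdgfb was at 219.97 and 187 CPM (log2 ratio -0.23, -0.63 to 0.16) and endothelin (Edn1) at 163 and 205 CPM (log2 ratio 0.33, -0.09 to 0.75). Of the genes for SPP1 receptors, which summed to 989.9 and 1213 CPM (log2 ratio 0.29, 0.13 to 0.46), Itgb1 was at 689 and 764 CPM (log2 ratio 0.15, -0.06 to 0.36) and Cd44 at 108 and 161 CPM (log2 ratio 0.58, 0.08 to 1.09). The integrin chain Itga5 had 35 and 60 UMIs. In the leukocyte-gene cluster Cd44 was at 927 CPM, from 35 and 49 UMIs. Without that cluster its log2 ratio over the other endothelial barcodes was 1.07, which rests on fewer UMIs. Over all endothelial barcodes the Cd44 ratio was 0.65 as a mean over cells and 0.18 at an equal mix of sub-clusters. The size of the Cd44 difference thus depended on the recalculation. A UMI of Spp1 was in 2.68% and 4.3% of endothelial barcodes, against 25.5% and 40.4% of the deeper phagocyte barcodes. At 2000 UMIs it was in 3 of 59 and 2 of 89 endothelial barcodes, and free RNA from phagocytes cannot be told apart from expression at these shares.

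Immediate early and heat shock genes, which also rise while tissue is digested, were lower in SPP1-nAb, at 13409 CPM in the IgG library and 10079.5 CPM in the SPP1-nAb library (log2 ratio -0.41, -0.46 to -0.36), with 15 of 17 measured members below 0 and none past 2-fold. At an equal mix of sub-clusters the ratio was -0.21. Fos was at 1958 and 1419 CPM (log2 ratio -0.46, -0.60 to -0.33), Egr1 at 1624 and 1033 CPM (log2 ratio -0.65, -0.81 to -0.50) and Jun at 1469 and 1043 CPM (log2 ratio -0.49, -0.65 to -0.34). The same list was at 13252 and 9896 CPM in phagocytes, 16282 and 13938 CPM in mesenchymal and 17116 and 14592 CPM in mural barcodes. In capillary-like cells without the mixed ones it was at 16109.5 and 16462 CPM (log2 ratio 0.03, -0.05 to 0.11), and in venous-like cells at 12032 and 5042 CPM (log2 ratio -1.25, -1.43 to -1.08). Shear stress genes were at 2524 and 2319 CPM (log2 ratio -0.12, -0.23 to -0.01), with the flow-induced factors Klf2 at 689 and 591 CPM (log2 ratio -0.22, -0.44 to -0.00) and Klf4 at 625 and 522 CPM (log2 ratio -0.26, -0.49 to -0.03), and Txnip at 459.6 and 319 CPM (log2 ratio -0.53, -0.81 to -0.24).

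Antigen presentation genes of MHC class II were higher in SPP1-nAb, at 868 CPM in the IgG library and 1612 CPM in the SPP1-nAb library (log2 ratio 0.89, 0.73 to 1.06), with 4 of 4 measured members above 0. The invariant chain Cd74 was at 401 and 738 CPM (log2 ratio 0.88, 0.64 to 1.13), H2-Aa at 183 and 348 CPM (log2 ratio 0.93, 0.57 to 1.30) and H2-Eb1 at 147 and 218 CPM (log2 ratio 0.57, 0.14 to 1.00). H2-Ab1 passed 2-fold at 109.99 and 237 CPM (log2 ratio 1.11, 0.65 to 1.59). Without the leukocyte-gene cluster, the list was at 419 and 430.3 CPM (log2 ratio 0.04, -0.24 to 0.32) and H2-Ab1 had a ratio of 0.43. MHC class I genes, which most nucleated cells carry, were at 5002 and 4676 CPM (log2 ratio -0.10, -0.18 to -0.02), with B2m at 2439 and 2246 CPM (log2 ratio -0.12, -0.23 to -0.01), H2-D1 at 882 and 815 CPM (log2 ratio -0.11, -0.30 to 0.08) and H2-K1 at 669.7 and 681 CPM (log2 ratio 0.02, -0.19 to 0.24). Interferon response genes were at 5446 and 5345 CPM (log2 ratio -0.03, -0.10 to 0.05), with 5 of 10 measured members on each side of 0. Ifitm3 was at 1992 and 2172 CPM (log2 ratio 0.12, 0.00 to 0.25), the GTPase Iigp1 at 1253 and 908 CPM (log2 ratio -0.46, -0.63 to -0.30) and Bst2 at 485 and 577 CPM (log2 ratio 0.25, 0.01 to 0.49).

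Hypoxia and glycolysis genes were at 2917 and 2669 CPM (log2 ratio -0.13, -0.23 to -0.02), and none of 7 measured members differed by 2-fold. The endothelial hypoxia factor Epas1 was at 520.5 and 386 CPM (log2 ratio -0.43, -0.69 to -0.17) and Gapdh at 619 and 541 CPM (log2 ratio -0.19, -0.42 to 0.04). Aldoa was at 349.6 and 184 CPM (log2 ratio -0.93, -1.29 to -0.57), and 82 of its 178 IgG UMIs lay in 1 cell. Without the highest cell of each gene and library, the ratio was -0.17 for Aldoa, 0.02 for Gapdh and 0.02 for the list. Without the 2 mixed cells the list's ratio was -0.01.

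**Figure D4:**
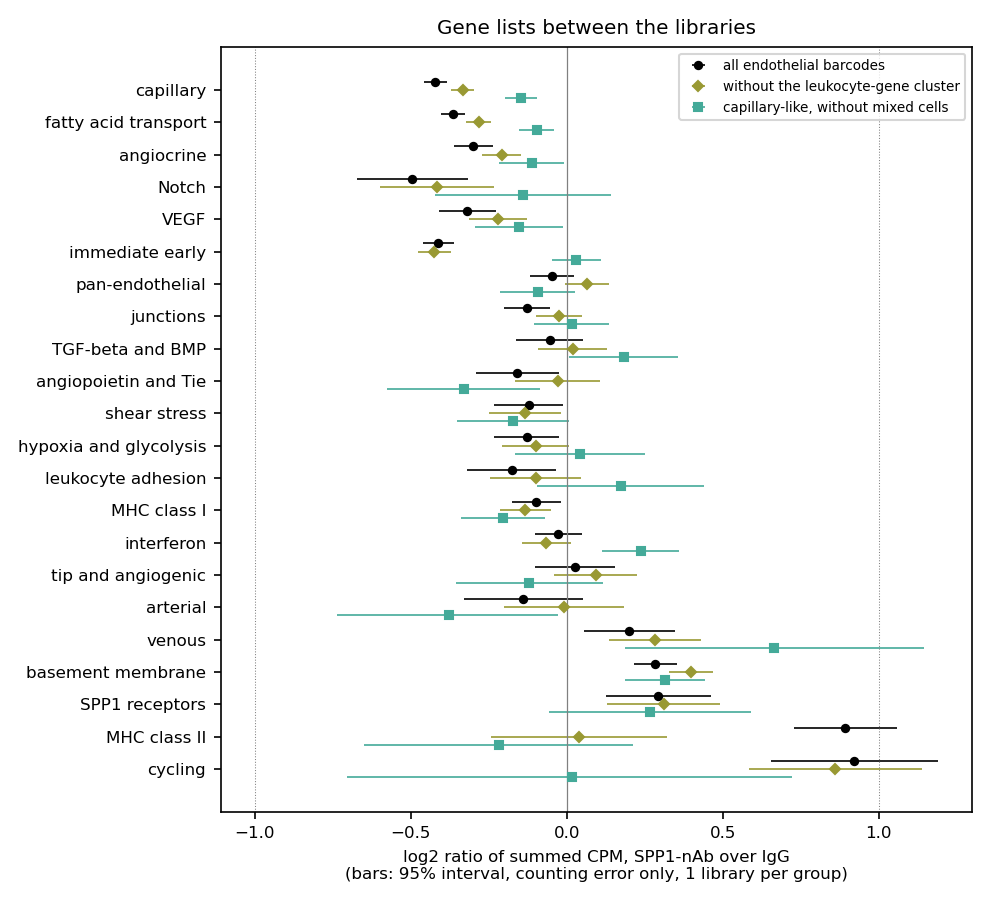
log2 ratio of the summed CPM of each list, SPP1-nAb over IgG, with 95% counting intervals, for all endothelial barcodes, for those without the leukocyte-gene cluster, and for capillary-like cells without the 2 mixed cells. Capillary-like cells were named for raised capillary genes, so their capillary and fatty acid ratios are descriptions. Basement membrane genes lie above 0 in each set, and MHC class II genes lie near 0 once the leukocyte-gene cluster is left out.

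Cycling genes had few transcripts. The 18 genes summed to 338 CPM in the IgG library and 639.5 CPM in the SPP1-nAb library (log2 ratio 0.92, 0.66 to 1.19), from 172 and 369 UMIs, and the proliferation marker Mki67 was found in 3 and 9 cells (5 and 27 UMIs). The topoisomerase Top2a had 14 and 54 UMIs, of which 28 in SPP1-nAb lay in 1 cell, and the replication clamp Pcna was at 129.6 and 135 CPM (log2 ratio 0.06, -0.43 to 0.56). Stmn1, a microtubule regulator, had 30 and 63 UMIs. Cells with 4 or more of these genes numbered 5 of 299 and 9 of 256, of which 4 and 6 lay in the deep cluster 4. Their shares were 1.67% (exact 95% interval 0.545 to 3.86%) and 3.52% (1.62 to 6.57%), a difference not detectable at this depth. At 2000 UMIs per cell they were 3 of 59 and 6 of 89 cells.

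Tip cell and angiogenic genes were at 1813 and 1846 CPM (log2 ratio 0.03, -0.10 to 0.15), with 2 of 5 measured members above 0 and none past 2-fold. The diaphragm protein Plvap was at 318 and 362 CPM (log2 ratio 0.19, -0.12 to 0.49), and Marcks at 793 and 709 CPM (log2 ratio -0.16, -0.36 to 0.04). Few cells carried lymphatic genes: 16 IgG and 10 SPP1-nAb cells had 1 or more of Prox1, Mmrn1, Flt4 and Ccl21a, and 2 and 0 cells had 2 or more, at a depth that leaves single genes undetected. The lymphatic list summed to 569.6 and 201 CPM, and all 168 IgG UMIs of Ccl21a, a chemokine of lymphatic vessels, lay in 1 cell. That cell had 7332 UMIs and lay in cluster 4. The IgG cell with 83 of 214 UMIs of the mesenchymal gene Dcn had the same total and cluster, and by these values was the same cell. The list summed to 1354 and 899 CPM in phagocyte, 753 and 782 CPM in mesenchymal and 318 and 428 CPM in mural barcodes. Nts had 11 and 39 UMIs and Maf 13 and 23 UMIs.

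Among genes at least 2-fold above the other kept barcodes in both libraries, 516 were measured and 9 passed 2-fold, 3 higher in SPP1-nAb and 6 lower, close to the 1.61% of all measured genes. Timp4 had the largest difference toward lower levels, at 403 and 107 CPM (log2 ratio -1.91, -2.34 to -1.49), in 108 and 44 cells, and within capillary-like cells without the mixed ones it was at 839 and 309 CPM (log2 ratio -1.44, -1.96 to -0.95). Cdkn1c, a cell cycle inhibitor, was at 464 and 140.4 CPM (log2 ratio -1.72, -2.11 to -1.35), and 102 of its 236 IgG UMIs lay in 1 cell, without which (and without the highest SPP1-nAb cell) its ratio was -0.98. That cell had 14410 UMIs and lay in cluster 4. All 47 IgG UMIs of the myogenic gene Myog lay in a cluster 4 cell of the same total, by these values the same cell. Ecm2 was at 159 and 65.9 CPM (log2 ratio -1.27, -1.87 to -0.70) and the immediate early gene Apold1 at 255 and 121 CPM (log2 ratio -1.07, -1.51 to -0.64). The sialyltransferase St3gal6 was at 136 and 67.6 CPM, just past 2-fold, and Pcp4l1 at 141 and 71.1 CPM (log2 ratio -0.99, -1.58 to -0.42), just short of it. The 6 lower genes were also lower in SPP1-nAb in all other kept barcodes. There Ecm2 was at 67.3 and 25.9 CPM, St3gal6 at 43.8 and 18.3 CPM and Cdkn1c at 70.6 and 36.2 CPM. Apold1 was at 4.35 and 2.13 CPM, Timp4 at 2.61 and 0.805 CPM and Aqp7 at 1.14 and 0.521 CPM. What the endothelial differences share with the other barcodes was not tested.

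Toward higher levels, Eln, which encodes elastin, was at 78.6 and 184 CPM (log2 ratio 1.23, 0.69 to 1.79), in 26 and 24 cells. Of its 40 and 106 UMIs, 15 and 81 lay in venous-like cells and 7 and 20 in arterial-like cells, so its higher level is not one of all endothelial barcodes. The Eln ratio was 0.72 as a mean over cells and 0.87 at an equal mix of sub-clusters. In the same recalculations Vwf was at 0.98 and 0.90, Ecm2 at -0.91 and -0.86, and Aqp7 at -0.91 and -0.71, all short of 2-fold. Apold1 was at -0.81 and -1.02, and Cdkn1c at -0.60 and -0.65. The insulin receptor Insr was at 80.5 and 147 CPM (log2 ratio 0.87, 0.32 to 1.45), 2200002D01Rik at 80.5 and 146 CPM (log2 ratio 0.85, 0.30 to 1.43), the protease Tll1 at 94.3 and 163 CPM (log2 ratio 0.79, 0.27 to 1.32) and the kinase Cdk17 at 137 and 230.5 CPM (log2 ratio 0.75, 0.32 to 1.18), each short of 2-fold. Of the genes past 2-fold that are not set apart from other barcodes, the phagocyte adaptor Tyrobp was at 82.5 and 239 CPM (log2 ratio 1.54, 1.03 to 2.07), and without the leukocyte-gene cluster its ratio was -0.27. Il1b was at 35.4 and 289 CPM (log2 ratio 3.03, 2.33 to 3.82), with 0.94 without that cluster. Mest, which was chosen after its values were seen, was at 55 and 175 CPM (log2 ratio 1.67, 1.05 to 2.33), in 16 and 35 cells, and had a ratio of 1.74 without it.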

How the data were processed

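Droplet single-cell RNA-seq of 2 libraries, IgG and SPP1-nAb, was used. The authors deposited UMI counts per gene and barcode (32287 features, Gfp included), made with Cell Ranger. The submitters' processing notes name version 8.0.0 and GRCm39, the study's methods also name GRCm38, and the file header names version 9.0.1. No ambient RNA correction was made here.

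Barcodes with more than 200 genes and under 10% mitochondrial UMIs were kept (48143 of 48848). Members and gene lists were chosen with earlier results of these data known, so their patterns are not independent support. UMIs were summed per library and given as CPM with exact Poisson intervals, ratios as log2 of SPP1-nAb over IgG with exact binomial intervals, and shares with Clopper-Pearson intervals (95%, counting error only). Ratios were read for genes with at least 100 UMIs and 20 cells over the endothelial barcodes of both libraries. Recalculated ratios of such genes, without some barcodes, can rest on fewer UMIs. With 1 library per group no test was run. Members were clustered (2000 variable genes without Spp1 and mitochondrial genes, 20 components, a Harmony-type integration written for this work, 15 neighbors, leidenalg 0.10.2 at resolution 1). A cluster was named where at least 3 class markers were raised 1.5-fold and present in at least 10% of its cells and 1 stood among its top 10 genes, a rule set after the clusters were seen. Doublets were scored against simulated doublets (2 per barcode, 30 neighbors) and kept, and the 10% highest scores were removed as an alternative.

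Named genes were the 6 markers and 4 excluded genes, the 3 members of each list with most UMIs and those past 2-fold, 8 genes per direction with the largest ratio among genes 2-fold above other barcodes, and 6 leading genes per sub-cluster, and a lineage-defining gene at or near 0 could be added. Other list members named were added after their values were seen. Tested on simulated counts for this comparison over 2117 genes, all 200 genes changed 4-fold were recovered past 2-fold (100%). The planted change was larger than the cutoff, so this checks the calculation and not how far single cells or animals move a ratio. Python 3.11.15, numpy 2.4.6 and scipy 1.17.1 were used.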

Additional observations from a re-analysis of the deposited data

How the results depend on the processing

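No paired analysis was possible because each group had 1 library, and no library could be left out for the same reason. The lower endothelial share in SPP1-nAb kept its direction under 9 alternatives and was reversed under 2: it was 0.21 points over kept barcodes with no Ptprc UMI and 0.0443 points with every barcode reduced to 2000 UMIs. The count of genes past 2-fold, 34, was 54 with at least 2 rule markers (36 higher, 18 lower), 84 with no genes excluded (31 higher, 53 lower, a choice made after seeing the data) and 10 with members reduced to 2000 UMIs, where 462 genes were measured. It lay between 24 and 42 under the other alternatives, with 10 higher and 14 lower at 4 or more markers, 11 and 17 without cells holding Ptprc, 11 and 17 at an equal sub-cluster mix, 20 and 16 with median ratio scaling and 12 and 15 without the leukocyte-gene cluster. These list ratios past 2-fold were reversed: lymphatic genes at 0.19 as a mean over cells and 0.38 without the highest cell of each gene, mesenchymal genes at 0.35 with at least 2 markers, and red cell genes at 0.0488 with no genes excluded. Of 434 list ratios recalculated for 31 lists, 306 stayed within the 95% counting interval of the reported value, 124 lay outside it and 4, the ratios past 2-fold given above, were reversed. In all, 396 kept their sign, and the other ratios that changed sign are among the 306 and the 124. The basement membrane ratio was 0.31 at an equal sub-cluster mix and 0.12 at 2000 UMIs, and the immediate early ratio -0.21 and -0.62. Sub-clusters numbered 7 to 11 against 9, and with 1000 variable genes 130 of 259 capillary-like cells were in clusters of that name. At resolution 0.5 the venous-like cluster held 37 IgG and 46 SPP1-nAb cells, against 20 and 22. The Cxcl12 share difference, -23.4 points at 2000 UMIs, was -9.76 at 1000 UMIs and -7.22 unreduced. The causes were not tested. The choices added after seeing the data were those without the leukocyte-gene cluster, without mixed cells, without each gene's highest cell and with no genes excluded.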
